A study of Mus musculus with 6 samples.

Results

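The YAP/TAZ and TEAD genes and their classic target genes were followed in 393P cells with and without ectopic ZEB1. The set held the coactivator genes Yap1 and Wwtr1 (which encodes TAZ), the DNA-binding partners Tead1, Tead2, Tead3 and Tead4, and the target genes Ctgf, Cyr61, Ankrd1 and Amotl2. These 10 of 24214 RefSeq features were listed by name as members of the pathway, with earlier results of these data known, and all 10 passed the filter on low counts that left 13892 genes for testing. 393P is an epithelial line of murine lung adenocarcinoma (LUAD), labelled as being of strain C57BL/6. It was transfected with a ZEB1 vector (393P_ZEB1, n = 3) or with the empty vector (393P_vector, n = 3), and both kinds of transfectant grew in RPMI-1640 with 10% serum. The sources used here do not name the promoter or the species of the ZEB1 cDNA, the number of clones, or whether the 3 samples of a group were separate transfections. The p-values therefore rest on the spread between these samples, which may be technical, and any other difference between the 2 transfected populations cannot be told apart from the effect of ZEB1.

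In the Hippo pathway, the kinases Mst1/2 activate the kinases Lats1/2. Lats1/2 in turn phosphorylate YAP and TAZ, which keeps both coactivators out of the nucleus. YAP and TAZ have no DNA-binding domain of their own and reach their target genes mainly through the TEAD factors. The pathway responds to cell density, polarity and mechanical tension, and ZEB1 protein has been described as a partner of YAP at TEAD sites in cancer cells that have undergone epithelial-to-mesenchymal transition (EMT). Much of this regulation acts on protein localization and phosphorylation, which RNA counts do not measure.

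Zeb1 stood at 21.2, 22.0 and 21.4 CPM (counts scaled to the normalized library size) in the 3 393P_vector samples and at 54.9, 48.9 and 51.3 CPM in the 393P_ZEB1 samples, a log2 fold change of 1.26 (SE 0.10, edgeR adjusted p = 6.06e-05). Genes of its chromosome, 18, had a median of 0.64. The 6 tested genes of chromosome Y had a median of -6.89, so the 2 populations also differed there. What lies behind these chromosome-wide differences was not tested. Total counts ranged from 54442450 to 79158012. 393P_vector replicate 3 stood apart, with 6.89% and 7.75% of tested genes at least 2-fold away from replicates 1 and 2, against 0.900% between those and at most 1.29% between 393P_ZEB1 samples. Several of the results are therefore given with and without it. Of the 10 epithelial markers, 9 were lower in 393P_ZEB1 cells (19.3% of all tested genes were lower). The log2 fold changes were -8.40 for Cldn4, -7.75 for Esrp1 and -6.53 for Epcam. Krt8 (-0.61) and Krt18 (-0.77) fell far less, and Krt19 did not pass (-0.39, edgeR adjusted p = 0.0809). Of the 9 mesenchymal markers, 6 were higher (2.21 for Twist1, 2.04 for Cdh2 and 0.80 for Zeb2), against 18.3% of all tested genes. Although the labels give lung as the tissue, the lung lineage markers Nkx2-1, Sftpc, Sftpb and Scgb1a1 were at or near 0, with a sum of at most 0.144 CPM in any sample. The fibroblast, haematopoietic and endothelial marker lists summed to at most 2.91, 4.24 and 2.46 CPM in any sample. Each of these lists had 1 gene lower in 393P_ZEB1 cells (Pdgfra, Csf1r and Kdr), and Kdr was at 1.91 ± 0.183 CPM against 0.330 ± 0.112 (SD, n = 3). Of the other endothelial markers, Pecam1 did not pass (mean 0.327 against 0.144 CPM). Cdh5 (0.0755 against 0.144 CPM) and Tek (0.0585 against 0.149 CPM) went the other way and were too low to test. In bulk RNA, fewer cells of a type and less RNA per cell cannot be told apart.

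Of the 10 genes, 3 were lower in 393P_ZEB1 cells (Tead3, Tead4 and Ctgf) and 0 were higher by edgeR's quasi-likelihood test at an adjusted p below 0.05. Over all 13892 genes tested, 19.3% were lower and 18.3% were higher. At an unadjusted p below 0.05, 1 of the 10 was higher (Wwtr1) and the same 3 were lower, against 22.4% and 24.2% of all genes. The DESeq2 Wald test also called 0 higher and 3 lower (over all genes, 20.3% and 21.3%). By limma voom with sample weights, 2 were higher and 6 lower (over all genes, 28.6% and 29.5%). That limma fit gave 393P_vector replicate 3 a weight of 0.111, against 3.019 and 1.428 for vector replicates 1 and 2. Its calls are therefore not independent of a fit that leaves this sample out. In 6 of the 10 the values of the 2 groups did not overlap, 4 lower and 2 higher in 393P_ZEB1 cells, against 52.8% of all genes tested. The median log2 fold change of the 10 was -0.19, against -0.02 over all genes tested. Without 393P_vector replicate 3 the fit called 5 lower and 1 higher (over all genes, 26.8% and 26.2%), with Cyr61 and Amotl2 joining the lower genes and Wwtr1 the higher ones.

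**Figure D1:**
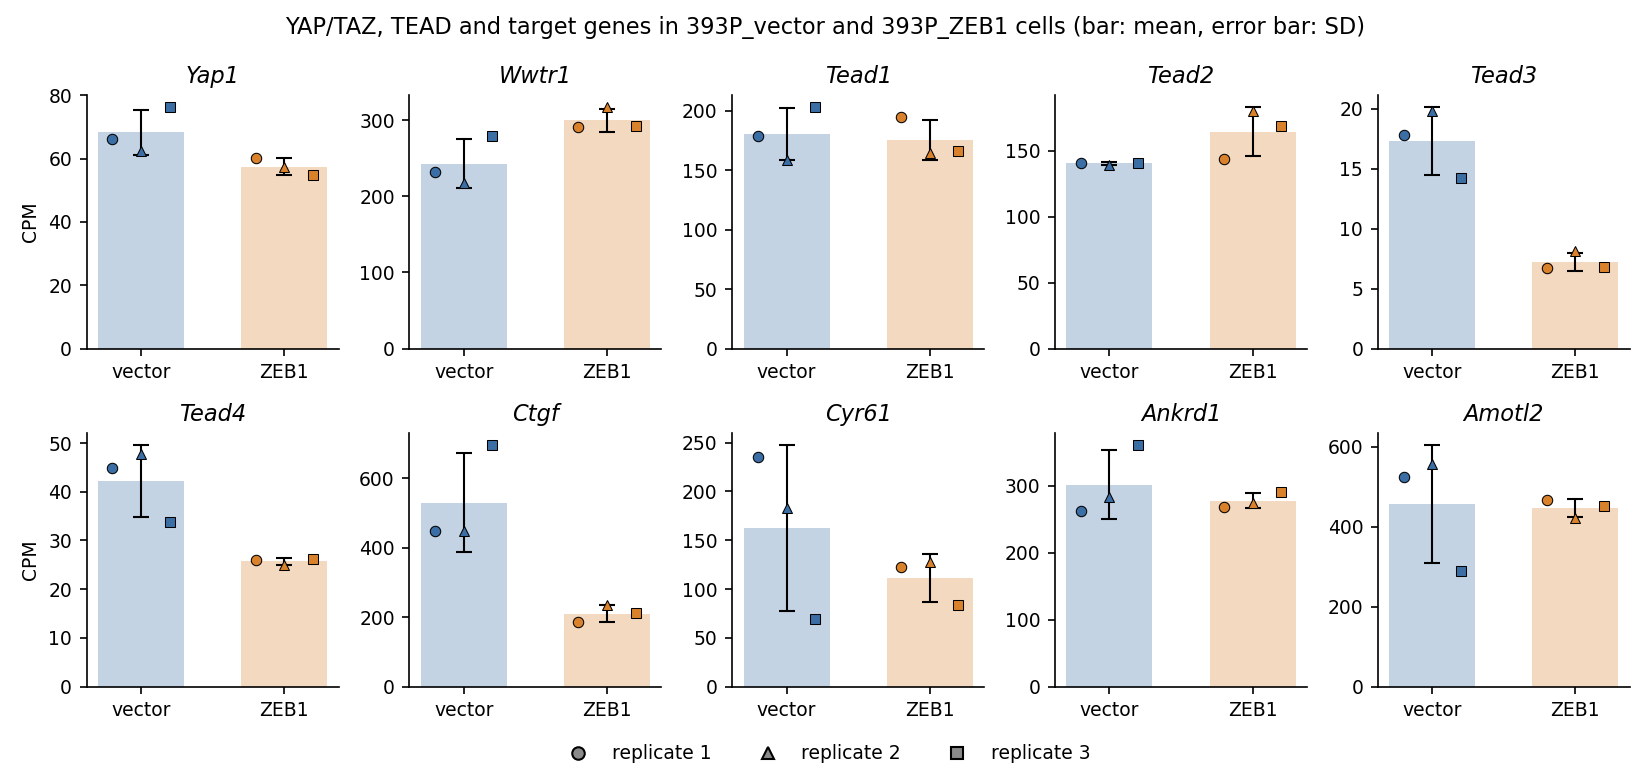
Expression of the 10 genes by sample, in CPM on linear axes from 0, with blue for 393P_vector and orange for 393P_ZEB1. Bars are means, error bars SD (n = 3) and symbols the replicates; Tead3, Tead4 and Ctgf are lower in every 393P_ZEB1 sample, and the vector replicate 3 square lies apart in Ctgf, Cyr61 and Amotl2.

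Expressed per kb of exon, which allows genes to be compared, the 4 target genes had the highest mean levels of the set in 393P_vector cells but not in 393P_ZEB1 cells. In 393P_vector cells Ctgf had the highest mean level, 221 CPM per kb, above 98.1% of tested genes, followed by Ankrd1 (172), Amotl2 (109) and Cyr61 (80.2). The sample ranges of Ctgf and Ankrd1 overlapped (187 to 290 and 149 to 205), as did those of Amotl2 and Cyr61 (69.2 to 133 and 34.3 to 116), although Ctgf was above Ankrd1, and Amotl2 above Cyr61, within each vector sample. Tead2 (66.7) and Wwtr1 (50.8) came next, below Cyr61 in vector replicates 1 and 2 and above it in replicate 3. Tead1 (18.1), Yap1 (16.4) and Tead4 (13.8) formed a lower group in which the ranges of neighbours overlapped, with Tead1 above Yap1 within each sample, and Tead3 was the lowest at 5.77. In 393P_ZEB1 cells the order differed. Ankrd1 led at 158 CPM per kb (153 to 165), then came Amotl2 at 107 (101 to 112), and Ctgf came after both at 87.7 (77.2 to 97.8). Cyr61, at 55.1 (41.1 to 63.3), lay below Tead2 (78.2) and Wwtr1 (62.8) within each 393P_ZEB1 sample. All exons of Wwtr1, Ctgf, Cyr61, Ankrd1 and Amotl2 held more than 10 reads in every sample.

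The promoters are shown because TEAD factors bind a short DNA motif, GGAATG, which reads CATTCC on the other strand, through which YAP and TAZ act on these target genes. In the 250 bases before the most upstream RefSeq start, 7 of the 10 genes had a sequence in the table used (RefSeq, GRCm38.p6), and 6 of those 7 held the motif on either strand, against 12.6% of 27025 genes. The window of Tead2 did not hold these letters, but the RefSeq start it was drawn from lies 39 bases inside the gene as the deposited annotation gives it, so this window is not wholly upstream of that gene start. In addition, Tead1, Tead4 and Ctgf were not in the table. The E-box CACCTG, which reads CAGGTG on the other strand and is a motif bound by ZEB1, was present in 1 of the 7 (Ankrd1) and in 17.1% of all windows. The motifs, the window and the choice of the most upstream start were settled after the motif's positions at all RefSeq starts of these genes had been seen, and another start of Tead3 held no TEAD motif, so the count of 6 is a description with no test. A match is a description of the sequence and no evidence of binding. The windows of 3 target genes follow, written 5′ to 3′ on the gene's strand with both motifs in capitals.
Cyr61, chr3:145649986-145650235, minus strand: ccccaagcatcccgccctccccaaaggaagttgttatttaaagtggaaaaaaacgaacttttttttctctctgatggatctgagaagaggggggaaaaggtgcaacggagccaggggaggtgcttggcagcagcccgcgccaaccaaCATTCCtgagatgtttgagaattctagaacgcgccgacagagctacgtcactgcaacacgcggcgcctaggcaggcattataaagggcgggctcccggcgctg
Ankrd1, chr19:36119845-36120094, minus strand: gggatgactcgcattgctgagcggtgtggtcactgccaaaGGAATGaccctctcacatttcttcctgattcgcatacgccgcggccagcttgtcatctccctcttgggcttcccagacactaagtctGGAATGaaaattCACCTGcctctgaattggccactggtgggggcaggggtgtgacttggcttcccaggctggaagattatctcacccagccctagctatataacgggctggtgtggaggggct
Amotl2, chr9:102717554-102717803, plus strand: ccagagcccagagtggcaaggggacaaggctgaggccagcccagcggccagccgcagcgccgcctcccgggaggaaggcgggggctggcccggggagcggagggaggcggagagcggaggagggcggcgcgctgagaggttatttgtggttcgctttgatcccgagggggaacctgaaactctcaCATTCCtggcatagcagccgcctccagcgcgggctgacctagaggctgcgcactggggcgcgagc
The TEAD motif began 103 bases before the start of Cyr61 and 65 bases before that of Amotl2. In Ankrd1 it began 210 and 123 bases before the start, and the E-box at 111 lay close downstream of the second copy. The stretches around the motif in the regulators themselves were as follows, beginning 141, 136 and 182 bases before the starts of Yap1, Wwtr1 and Tead3.
Yap1, chr9:8004712-8004757, minus strand: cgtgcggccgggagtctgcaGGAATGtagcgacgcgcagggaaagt
Wwtr1, chr3:57576021-57576066, minus strand: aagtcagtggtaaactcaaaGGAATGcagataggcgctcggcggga
Tead3, chr17:28350962-28351007, minus strand: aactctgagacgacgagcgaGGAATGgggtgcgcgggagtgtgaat
The genes with the motif included Tead3, which was lower in 393P_ZEB1 cells. The others, Yap1, Wwtr1, Cyr61, Ankrd1 and Amotl2, did not pass the threshold by edgeR with all samples.

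The coactivators Yap1 and Wwtr1 did not pass the threshold by edgeR with all samples, and their fold changes had opposite signs. Yap1, on chromosome 9 from 7932001 to 8004596 (GRCm38), stood at 66.3, 62.3 and 76.2 CPM in 393P_vector cells and at 60.1, 57.4 and 54.8 CPM in 393P_ZEB1 cells. The lowest vector sample lay just above the highest 393P_ZEB1 sample. Yap1 had a log2 fold change of -0.25 (95% interval -0.51 to 0.02, edgeR adjusted p = 0.125). Wwtr1, on chromosome 3 from 57455644 to 57575910, stood at 232, 218 and 279 CPM and then at 291, 317 and 292 CPM, with vector replicate 3 close below the lowest 393P_ZEB1 sample. Its log2 fold change was 0.30 (95% interval 0.02 to 0.59) and did not pass the threshold (edgeR adjusted p = 0.0847). Without 393P_vector replicate 3 it was 0.42 (edgeR adjusted p = 0.00130), while Yap1 stayed short of the threshold at -0.16 (edgeR adjusted p = 0.124). By limma voom with sample weights, Yap1 passed as lower (limma adjusted p = 0.0356) and Wwtr1 as higher (limma adjusted p = 0.000401). Both 95% intervals of the edgeR fit of all samples lay within 1 log2 unit of 0.

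The balance of the 2 coactivators was compared by their shares of the summed level. Yap1 made up 24.7%, 24.7% and 23.9% of the summed Yap1 and Wwtr1 level per kb in 393P_vector cells and 19.1%, 17.2% and 17.7% in 393P_ZEB1 cells. The shares did not overlap, and vector replicate 3 lay close to the other vector samples here. The mean share was 24.4% ± 0.468 against 18.0% ± 0.991 (SD, n = 3), a difference of -6.40 percentage points (two-sided exact permutation p = 0.1, the smallest that 3 against 3 allows). The ratio of Wwtr1 to Yap1 per kb was 3.04 to 3.18 in 393P_vector and 4.22 to 4.80 in 393P_ZEB1 samples. The summed level of both was 67.2 ± 8.40 CPM per kb against 76.6 ± 3.08 (SD, n = 3, exact permutation p = 0.3).

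**Figure D2:**
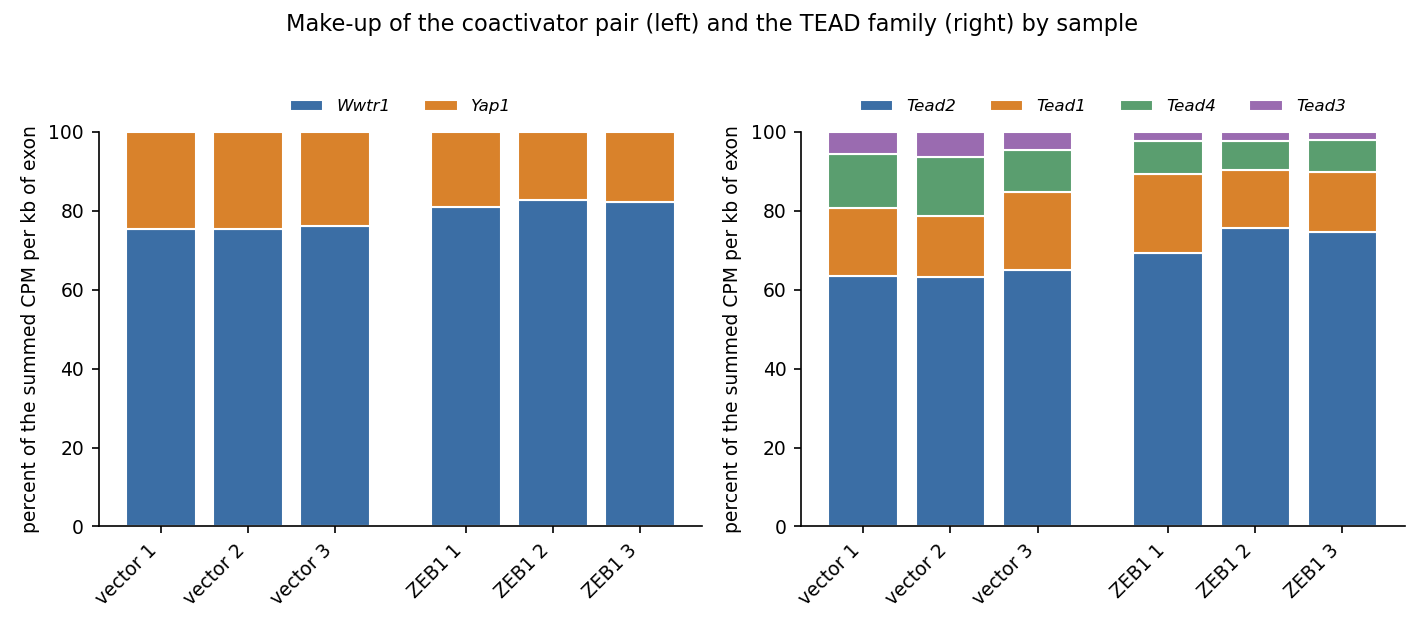
Make-up of the coactivator pair (left) and of the TEAD family (right) in each sample, as percent of the summed CPM per kb of exon on a linear axis from 0 to 100. The Wwtr1 part is larger in each 393P_ZEB1 sample (80.9% to 82.8%) than in each 393P_vector sample (75.3% to 76.1%), and so is the Tead2 part.

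Of the TEAD factors, Tead1 and Tead2 did not pass the threshold by edgeR and Tead3 and Tead4 were lower. Tead1, the longest of the 4 transcripts, on chromosome 7 from 112679320 to 112906805, stood at 179, 159 and 203 CPM against 195, 165 and 166 CPM. These values overlapped, and Tead1 had a log2 fold change of -0.04 (95% interval -0.33 to 0.25, edgeR adjusted p = 0.832). Tead2, a TEAD factor known from early development, lies on the same chromosome from 45215753 to 45233619 and stood at 141, 139 and 141 CPM against 144, 180 and 169 CPM. All 393P_ZEB1 samples lay above all vector samples, the first of them by very little. For Tead2 the log2 fold change was 0.23 (95% interval -0.03 to 0.49), short of the threshold (edgeR adjusted p = 0.144). By limma voom with sample weights, Tead2 passed as higher (limma adjusted p = 0.0105).

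Tead3 and Tead4, the less abundant factors per kb, were lower in 393P_ZEB1 cells. Tead3, a factor prominent in placenta, on chromosome 17 from 28331673 to 28350805, stood at 17.8, 19.8 and 14.2 CPM in 393P_vector cells and at 6.69, 8.10 and 6.83 CPM in 393P_ZEB1 cells. The groups were well apart, and vector replicate 3 was the lowest of the vector samples. Tead3 had a log2 fold change of -1.26 (SE 0.17, edgeR adjusted p = 0.000822), a 2.39-fold lower level. Tead4, needed for the trophectoderm of the embryo, on chromosome 6 from 128227143 to 128300813, stood at 44.8, 47.8 and 33.8 CPM and then at 25.9, 24.9 and 26.3 CPM. Its groups did not overlap either, and vector replicate 3 was the nearest vector sample. The log2 fold change of Tead4 was -0.71 (SE 0.15, edgeR adjusted p = 0.00745), a 1.64-fold lower level, and it was -0.85 without that replicate (edgeR adjusted p = 1.74e-05). Against a minimum fold change of 1.5, Tead4 no longer passed (edgeR adjusted p = 0.321). Both genes lie on chromosomes whose tested genes were lower as a whole, with a median of -0.43 for chromosome 17 and -0.36 for chromosome 6. Relative to these medians Tead3 was at -0.83 and Tead4 at -0.36, about the size of its chromosome's own shift. The part of these chromosome-wide shifts in the result was not tested.

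The summed TEAD level was 104 ± 1.16 CPM per kb in 393P_vector cells and 107 ± 7.40 in 393P_ZEB1 cells (SD, n = 3, exact permutation p = 0.7). Within it, Tead2 was the main member in every sample and made up 63.9% ± 0.943 of the sum in 393P_vector and 73.2% ± 3.42 in 393P_ZEB1 cells (SD, n = 3). Tead4 made up 13.2% ± 2.25 and 7.90% ± 0.687, and Tead3 made up 5.53% ± 0.875 and 2.26% ± 0.141. For these 3 shares the groups did not overlap (exact permutation p = 0.1, the smallest possible, 0.133 after adjustment over the 4 shares), so none passes a threshold of 0.05 in this design. The share of Tead1 was 17.4% ± 2.20 and 16.7% ± 2.80 (exact permutation p = 0.8, also after adjustment).

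**Figure D3:**
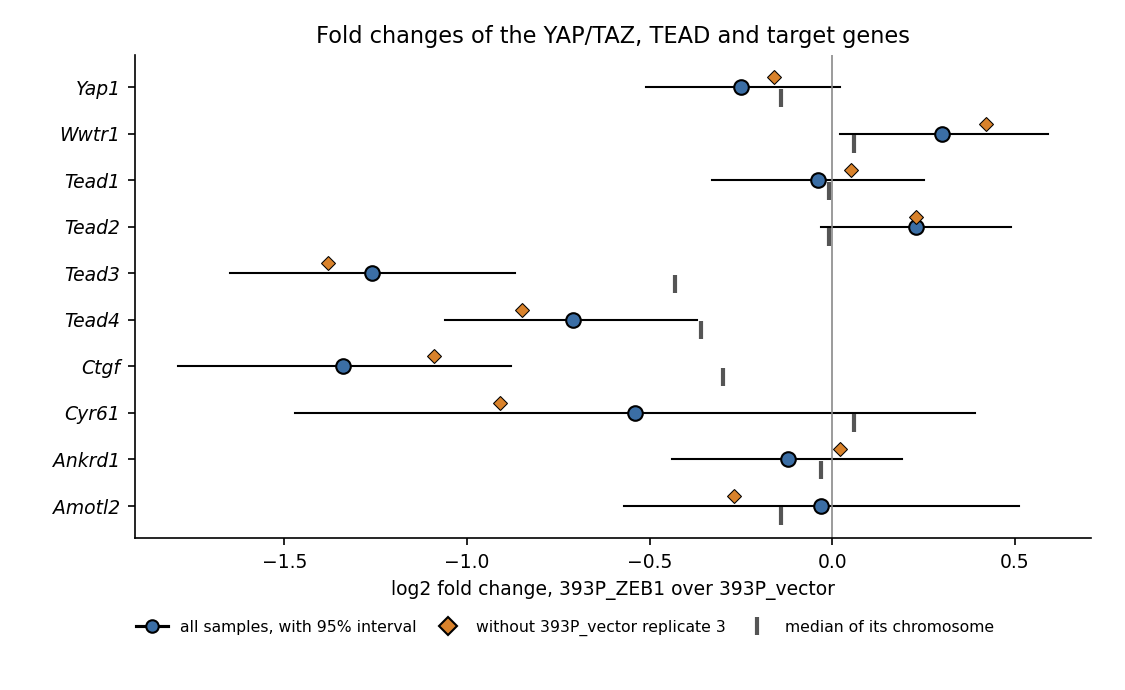
Log2 fold changes of 393P_ZEB1 over 393P_vector for the 10 genes, on a linear axis. Circles with lines are the fit of all 6 samples with its 95% interval, diamonds the fit without 393P_vector replicate 3, and grey ticks the median of the gene's chromosome; the intervals of Tead3, Tead4 and Ctgf lie below 0, and the diamond of Cyr61 lies at -0.91.

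Of the target genes, Ctgf alone passed the threshold by edgeR with all samples. By limma voom with sample weights, Cyr61 and Amotl2 also passed as lower (limma adjusted p = 0.0137 and 0.0270). Vector replicate 3 had a weight of only 0.111 in that fit. Ctgf, which encodes the matricellular protein CCN2 and is a widely used readout of YAP/TAZ activity, was lower in 393P_ZEB1 cells. On chromosome 10 from 24595442 to 24598682, it stood at 448, 448 and 695 CPM in 393P_vector cells and at 185, 234 and 211 CPM in 393P_ZEB1 cells. All 393P_ZEB1 samples lay far below all vector samples. Ctgf had a log2 fold change of -1.34 (SE 0.20, edgeR adjusted p = 0.00141), a 2.52-fold lower level, and without vector replicate 3, the highest sample, it was -1.09 (edgeR adjusted p = 6.64e-06). Ctgf was at -1.04 relative to the median of chromosome 10 (-0.30) and at -1.21 relative to 46 tested genes within 5 Mb. An antisense transcript in GENCODE M21, Gm15270, shares 18.9% of the 35-base words of the Ctgf transcripts. The counting is not stated to use strand, so reads of the 2 genes cannot be told apart over that stretch. For each of the other 9 genes at most 2.47% of such words, the value of Yap1, were shared with any other gene.

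Cyr61 (CCN1), the close relative of Ctgf on chromosome 3 from 145646971 to 145649985, stood at 235, 183 and 69.4 CPM against 123, 128 and 83.2 CPM. The groups overlapped through vector replicate 3 alone, the lowest of all 6 samples. Its log2 fold change was -0.54 with a wide 95% interval of -1.47 to 0.39 (edgeR adjusted p = 0.322). Without that replicate it was -0.91 (edgeR adjusted p = 0.00994), so the call on Cyr61 rests on 1 library. For Cyr61, vector replicate 3 was at 0.333 times the mean of replicates 1 and 2, a difference larger than that of 98.4% of tested genes.

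Ankrd1, a nuclear cofactor of stressed muscle and a sensitive YAP target, on chromosome 19 from 36111965 to 36119844, stood at 262, 283 and 360 CPM against 268, 274 and 290 CPM. All 393P_ZEB1 values lay within the range of the vector samples. Ankrd1 had a log2 fold change of -0.12 (95% interval -0.44 to 0.19, edgeR adjusted p = 0.516), and 0.02 without vector replicate 3. Amotl2, an angiomotin that binds YAP and is induced by it, on chromosome 9 from 102717804 to 102733417, stood at 524, 558 and 289 CPM against 468, 423 and 451 CPM. Here vector replicate 3 was the lowest sample and the other vector samples were the highest. The log2 fold change of Amotl2 was -0.03 (95% interval -0.57 to 0.51, edgeR adjusted p = 0.932) with all samples and -0.27 without that replicate (edgeR adjusted p = 0.0145).

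In 393P_vector replicate 3 the target genes thus departed from their group in different directions, with Ctgf 1.55 times and Ankrd1 1.32 times the mean of replicates 1 and 2, and Amotl2 0.535 times and Cyr61 0.333 times that mean. The ratio of Ctgf to Cyr61 per kb was 8.46 in that sample and between 1.27 and 2.14 in the other 5. The sum of the 4 targets in that sample was close to that of the other vector samples. The summed CPM of the 4 targets was 1469, 1471 and 1414 in 393P_vector and 1045, 1059 and 1034 in 393P_ZEB1 samples, a lower sum in which the largest difference was that of Ctgf.

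The kinases and upstream regulators of the pathway were compared in the same way, list by list. Of the 7 genes of the Hippo kinase core, 2 were lower (28.6%, against 19.3% of all genes tested) and 0 higher, with a list median of -0.21. Lats1, a kinase that phosphorylates YAP and TAZ, stood at 208, 192 and 216 CPM against 140, 128 and 121 CPM (log2 fold change -0.66, edgeR adjusted p = 0.00187), without overlap. Stk4, which encodes Mst1, fell less, from 202 ± 16.2 to 161 ± 7.15 CPM (SD, n = 3), a log2 fold change of -0.33 (edgeR adjusted p = 0.0378). The median of the gene's chromosome was -0.30 for Lats1 and -0.05 for Stk4. Of 21 upstream regulators and inhibitors of YAP/TAZ, 6 were lower (28.6%, against 19.3% of all genes tested) and 1 higher (4.76%, against 18.3%), with a median of -0.11. Without vector replicate 3 the counts were 9 and 2, where 26.8% and 26.2% of all genes were called.

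The regulators that passed included several that restrain YAP and TAZ and 1 that restrains Lats. Rassf1, a scaffold of the Mst kinases, was at 68.3 ± 7.76 CPM in 393P_vector and 35.2 ± 1.92 in 393P_ZEB1 cells (SD, n = 3), a log2 fold change of -0.96 (edgeR adjusted p = 0.000637). Jub (Ajuba), a LIM protein that inhibits Lats, went from 148 ± 5.69 to 81.9 ± 3.73 CPM (log2 fold change -0.86, edgeR adjusted p = 0.000293). Amotl1, an angiomotin like Amotl2, went from 347 ± 63.8 to 216 ± 12.6 CPM (log2 fold change -0.69, edgeR adjusted p = 0.00949). Fat4, the large protocadherin at the top of the pathway, was the 1 that rose, from 5.64 ± 1.07 to 16.4 ± 2.15 CPM, 2.91-fold (edgeR adjusted p = 0.000496). The chromosome medians were -0.14 for Rassf1, -0.26 for Jub, -0.14 for Amotl1 and 0.06 for Fat4. Their part in these changes was not tested.

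Among the Vestigial-like cofactors, which bind TEAD factors in place of YAP and TAZ, Vgll3 stood at 12.5, 11.9 and 16.3 CPM in 393P_vector cells and at 0.972, 0.936 and 0.835 CPM in 393P_ZEB1 cells. This was a 14.8-fold lower level (log2 fold change -3.89, SE 0.19, edgeR adjusted p = 5.06e-06), larger than that of any of the 10 genes. Vgll4 did not pass (log2 fold change -0.11, edgeR adjusted p = 0.616), and Vgll1 and Vgll2 were too low to test, with at most 8 counts in a sample.

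Further published YAP/TAZ-TEAD targets went both ways. Of the 18, 17 were tested, with a median of -0.18. Of these, 4 were higher and 5 were lower (23.5% and 29.4%, against 18.3% and 19.3% of all genes tested). Without vector replicate 3 the counts were 4 and 8, where 26.2% and 26.8% of all genes were called. Among the higher ones, Foxf2, a forkhead factor of mesenchyme, went from 11.7 ± 0.751 to 32.6 ± 3.73 CPM (SD, n = 3), 2.78-fold (edgeR adjusted p = 9.56e-05). Tgfb2, a ligand of the TGF-beta pathway, rose 1.98-fold and Asap1, an Arf GTPase-activating protein, 1.57-fold (edgeR adjusted p = 0.00246 and 0.00674). Among the lower ones, Rbms3, an RNA-binding protein, fell 8.96-fold from 5.42 ± 0.443 to 0.603 ± 0.0849 CPM (edgeR adjusted p = 1.25e-05). Nt5e, the ecto-5'-nucleotidase CD73, fell 6.48-fold and F3, tissue factor, fell 4.38-fold (edgeR adjusted p = 9.84e-06 and 0.00029). F3 stood at 71.1, 66.8 and 117 CPM against 17.9, 21.9 and 18.4 CPM, with vector replicate 3 the highest as in Ctgf.

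Relatives of the target genes were also measured. Of the other CCN genes, Wisp2 (CCN5) went from 0.159, 0.0850 and 0.156 CPM (9, 5 and 13 counts) to 3.89, 3.29 and 3.77 CPM, a log2 fold change of 4.74 (SE 0.27, edgeR adjusted p = 8.60e-06). Nov (CCN3) went from 0.634 ± 0.201 to 3.44 ± 0.128 CPM (SD, n = 3), 5.36-fold (edgeR adjusted p = 0.000241). Both remained far below Ctgf and Cyr61 in CPM, Wisp1 did not pass (log2 fold change -0.32, edgeR adjusted p = 0.105), and Wisp3 was too low to test. Of the Ankrd1 relatives, Ankrd23 was lower (log2 fold change -1.07, edgeR adjusted p = 0.0394) at 1.62 ± 0.572 against 0.767 ± 0.167 CPM, and Ankrd2 was too low to test.

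**Figure D4:**
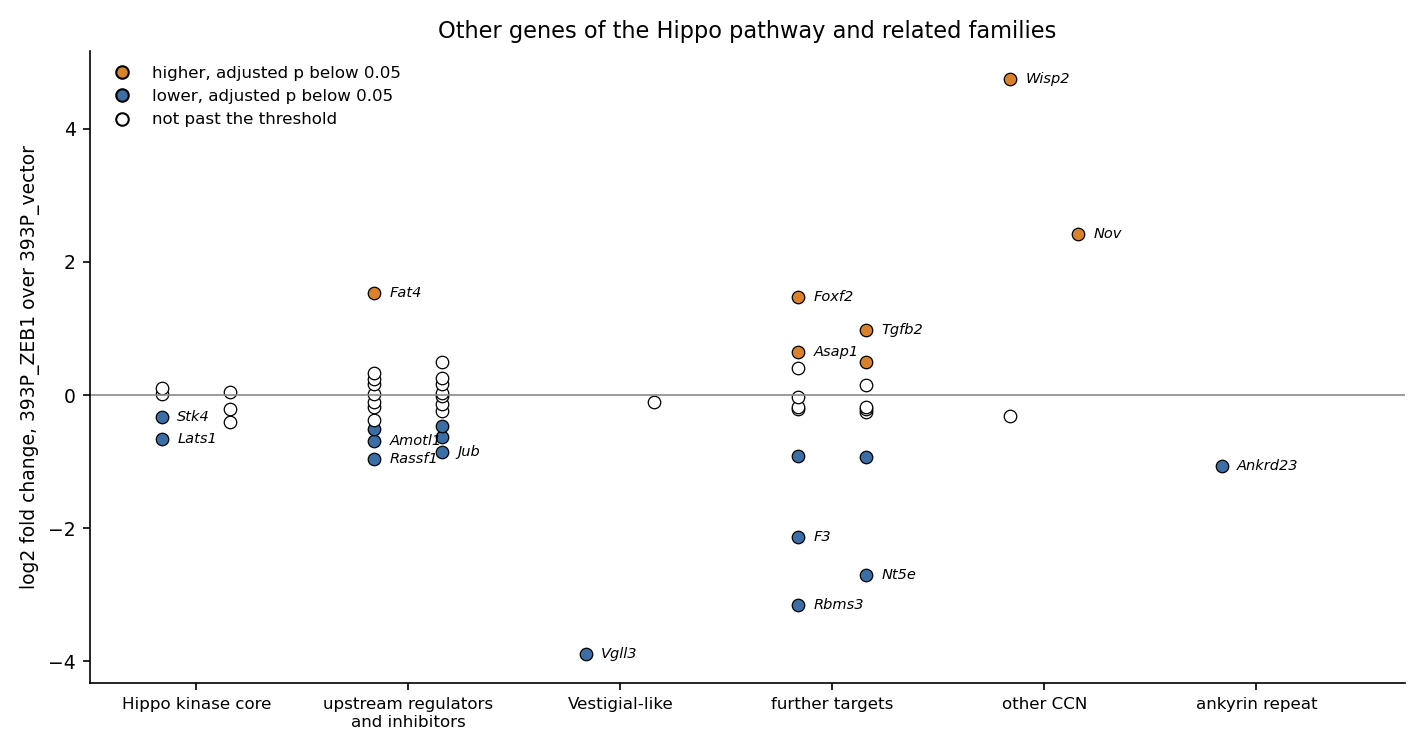
Log2 fold changes of 393P_ZEB1 over 393P_vector for the tested genes of 6 lists around the pathway, each point 1 gene and its side-to-side place within a list without meaning. Orange and blue points passed an adjusted p below 0.05 as higher or lower and white ones did not; Wisp2 is the highest point at 4.74 and Vgll3 the lowest at -3.89.

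The study relates ZEB1 to the miR-200 family, a set of microRNAs that ZEB1 represses, so matches to their seeds were located in the 10 genes. The mature sequences (RefSeq) fall into a group for each of 2 seeds, shown in capitals (bases 2 to 8).
miR-200b-3p: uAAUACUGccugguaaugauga
miR-200c-3p: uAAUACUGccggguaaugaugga
miR-429-3p: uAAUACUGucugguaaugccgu
miR-200a-3p: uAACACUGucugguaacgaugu
miR-141-3p: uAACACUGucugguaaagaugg
In GENCODE M21 the longest coding transcript of each gene was taken, and its 3′ UTR held a match to the whole seed of either group in 6 of the 10 genes. The share of all genes with a match to either seed was not computed, so this count has none to be read against. CAGTGTT, the match to miR-200a and miR-141, was in 3 of the 10 and in 19.0% of 11835 tested genes with a 3′ UTR. It occurred 2 times in Yap1 and 1 time each in Wwtr1 and Tead2, here in capitals.
Yap1, chr9:7933482-7933510, minus strand: gggagggtgggCAGTGTTatagaaagggc
Yap1, chr9:7932085-7932113, minus strand: gttgtgtccagCAGTGTTtaatgcttcct
Wwtr1, chr3:57456846-57456874, minus strand: acaaaacttgaCAGTGTTactatatttaa
Tead2, chr7:45233455-45233483, plus strand: atatttatacaCAGTGTTagggatgtaat
CAGTATT, the match to miR-200b, miR-200c and miR-429, was also in 3 of the 10 and in 14.5% of the tested genes.
Tead1, chr7:112906353-112906381, plus strand: tcccggcagtaCAGTATTctcgtactcat
Ankrd1, chr19:36112474-36112502, minus strand: tttcatagcacCAGTATTcaggctttcat
Amotl2, chr9:102733374-102733402, plus strand: gccaggtatgaCAGTATTttaataaaaaa
Of the 6 genes with a match, none passed the threshold in the edgeR fit of all samples. Their log2 fold changes were -0.25 (Yap1), 0.30 (Wwtr1), -0.04 (Tead1), 0.23 (Tead2), -0.12 (Ankrd1) and -0.03 (Amotl2). Without 393P_vector replicate 3, Wwtr1 passed as higher and Amotl2 as lower. With limma voom and sample weights, Wwtr1 and Tead2 passed as higher and Yap1 and Amotl2 as lower. The 3 genes that were lower by edgeR with all samples, Tead3, Tead4 and Ctgf, held neither match. The 3′ UTRs differed in length, from 690 bases in Cyr61 to 8147 in Tead1, and mature microRNAs were not analysed here.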

How the data were processed

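Total RNA of 6 samples was sequenced on the SOLiD platform. For each sample the authors deposited the count of reads on 24214 RefSeq features and the RPKM, which is the count scaled by exon length and total reads. Coordinates match GRCm38. Aligner and counting program are not given in the sources used here. Samples were grouped by their labels.

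Counts were normalized by TMM, filtered by filterByExpr (minimum count 10) and compared by the robust quasi-likelihood test of edgeR 4.0.16 in R 4.3.3, with Benjamini-Hochberg adjustment over 13892 genes. CPM used TMM-scaled library sizes. Shares were compared by exact permutation tests (SciPy). Named genes were the 10 genes, Zeb1 and, from each list, up to 3 rises and 3 falls past the threshold at a mean of 1 CPM or more. The 10 genes and the lists were chosen with earlier results of these data known. Alternatives were DESeq2 1.42.0, limma 3.58.1, other filters and left-out samples. Replicates of a group differed beyond sampling noise (mean chi-square per gene 21.2 or more). The test was run on simulated counts with known changes. A first simulation, in which some genes changed by 1.5-fold only, missed the recovery set for it. It was replaced by one with changes of 2-fold and more and a new limit, which the test passed. Changes near 1.5-fold may therefore be missed at this sample size. The simulated replicates also varied less than these samples and held no outlying one. The pass therefore does not show how well 2-fold changes are recovered in these data. The driver alleles of the cell line are not reported here.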

Additional observations from a re-analysis of the deposited data

How the results depend on the processing

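Of 170 recomputed log2 fold changes of the 10 genes, 154 kept their side of the threshold and direction or moved by less than the spread. Tead3 and Ctgf passed the threshold in all 15 tested alternatives and Tead4 in 14. With limma voom and sample weights, 2 of the 10 genes were higher and 6 lower (3977 and 4094 of all genes). Against a fold change of 1.5, 1081 genes were higher and 1118 lower, and at an adjusted p below 0.01, 1584 and 1545. With 1 sample left out at a time, 0 to 1 of the 10 genes were higher and 3 to 5 lower, with 1861 to 3700 and 1784 to 3776 of all genes. Both the 1 and the 5 came without 393P_vector replicate 3, and the lowest count of lower genes came without 393P_ZEB1 replicate 3.

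The difference in the share of Tead1 was -0.704 percentage points and changed sign without 393P_vector replicate 3 (0.468) and without 393P_ZEB1 replicate 2 (0.286), ranging from -2.31 to 0.468 over the left-out samples. The share of Tead3 moved from -3.27 to -2.63 percentage points when counts were not scaled by length. The median of tested genes within 5 Mb was an alternative chosen after seeing the data. Relative to it, Tead3 was at -0.81, Tead4 at -0.28 and Yap1 at -0.42. Relative to the median of chromosome 9 (-0.14), Yap1 was at -0.11, against a log2 fold change of -0.25 before either subtraction. The 5 Mb median thus made the difference in Yap1 larger, and the chromosome median made it smaller.

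With a replicate block the fit called 2180 genes higher and 2256 lower, with 0 and 3 of the 10. Samples of the same number deviated with r = 0.195, -0.126 and -0.028, so the numbers were not taken to pair the samples. At 3 samples per group, shares could not reach an exact p below 0.1.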
